A study of Mus musculus with 6 samples.

Results

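The 33 genes described here encode the machinery of the unfolded protein response in the endoplasmic reticulum (ER): its sensors, the chaperones and folding enzymes of the ER lumen, the proteins of ER-associated degradation (ERAD), the translocon subunit Sec61b, the regulatory subunits of the eIF2α phosphatase and the ER membrane protein Wfs1. They were chosen by name, leaving out a list of downstream effectors of the transcription factor ATF4, although member Ppp1r15a is also its target. All 33 were found among the 40202 genes of the deposited table. All 33 also passed the filter on low values (a mean of at least 10 normalised reads over the 6 libraries), as did 14079 genes in all. The samples were BV2 cells, an immortalised mouse microglial line labelled as C57BL/6. A group of 3 samples was treated with human full-length apolipoprotein E4 (FL-ApoE4) at 25 µg/ml for 5 h, and 3 control samples were untreated. Whether the controls received the vehicle of the protein, and whether replicates came from separately grown cultures, is not stated in the labels. The p-values below therefore describe the spread among these 6 samples, which may be technical.

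The ER folds secreted and membrane proteins. When unfolded proteins accumulate there, 3 membrane sensors respond: IRE1α (gene Ern1) splices the Xbp1 message so that an active transcription factor is made, ATF6 is cut to release a transcription factor, and PERK (gene Eif2ak3) phosphorylates eIF2α, which slows translation and favours that of ATF4. ATF6 and spliced XBP1 raise chaperones and ERAD genes, whereas the ATF4 arm raises amino acid and stress genes and Ppp1r15a, whose product restores translation. Macrophages and microglia make large amounts of secreted and surface protein and rely on this machinery.

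Libraries held 45700128 to 54965393 reads assigned to genes, so counting error was small for every member except Derl3. Control replicate 1 stood apart from the other 5 libraries on the first principal component (38.5% of the variance), and calls, directions and counts that turn on it are given without it as well. FL-ApoE4 replicate 1 differed from its own group in a way that followed transcript length, as described for the sensors. Of 12 markers of microglia and macrophages, 10 passed the filter, among them Csf1r, Itgam and Trem2, and P2ry12 and Sall1 were listed at 0. The summed markers reached 191491 to 200127 normalised reads in FL-ApoE4 libraries and 172655 to 179372 in controls, and the part of that difference in the results below was not tested. Summed markers of oligodendrocytes reached 1211 to 1297 normalised reads with FL-ApoE4 and 1151 to 1242 in controls, nearly all of it Mbp. Those of neurons summed to at most 85.7 normalised reads in any library and those of astrocytes to at most 43.4. Those of lymphocytes summed to at most 17.6 and those of fibroblasts to at most 7.60. In all, 15958 of the 40202 genes were listed at 0 in every library, and B2m summed to 0. Whether a listed 0 means an absent transcript was not tested.

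Promoter sequences show which members carry the known ER stress elements. RefSeq windows (build GRCm38.p6, from 250 bases before to 50 after the annotated start) were found for 28 of the 33 members. They were searched on both strands for the ER stress element (ERSE, CCAAT and CCACG with any 9 bases between them), which ATF6 and the factor NF-Y bind, for ERSE-II (ATTGG, any base, CCACG), for the XBP1 element UPRE (TGACGTGG), and for the C/EBP-ATF response element (CARE, TGATGNAA), through which ATF4 acts. An ERSE was present in 9 of the 28 members (32.1%), against 37 of 27025 genes with a window (0.137%). These were Hspa5, Hsp90b1, Dnajc3, Pdia6, Calr, Canx, Creld2, Syvn1 and Derl3. ERSE-II was present in Dnajb11 and Herpud1, against 0.0444% of all genes, and no member held the UPRE, against 0.714%. Herpud1 was the only member whose window held a CARE, which 4.51% of all genes do. No match in a member overlapped another. A match is a run of letters, and its use in these cells was not measured.

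Derl3 also holds its ERSE upstream of the start, but its stretch is not shown. The stretches around the matches upstream of the start are shown for 9 other members, to set 8 genes with an ERSE beside Herpud1. They read 5′ to 3′ on the gene's own strand, with 10 flanking bases and the matched bases in capitals, and a match on the other strand appears as its reverse complement (CGTGG to ATTGG for ERSE, TTGCATCA for CARE).
Hspa5, chr2:34772015-34772053, plus strand: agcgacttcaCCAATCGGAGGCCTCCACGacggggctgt
Hsp90b1, chr10:86705523-86705666, minus strand: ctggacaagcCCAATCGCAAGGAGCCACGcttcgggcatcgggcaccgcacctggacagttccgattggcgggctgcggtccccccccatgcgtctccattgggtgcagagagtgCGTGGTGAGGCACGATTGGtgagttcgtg
Calr, chr8:84847065-84847103, minus strand: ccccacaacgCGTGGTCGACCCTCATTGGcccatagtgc
Canx, chr11:50325790-50325828, minus strand: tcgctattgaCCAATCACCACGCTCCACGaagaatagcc
Pdia6, chr12:17266481-17266519, plus strand: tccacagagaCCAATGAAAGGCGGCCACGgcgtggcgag
Dnajc3, chr14:118937817-118937855, plus strand: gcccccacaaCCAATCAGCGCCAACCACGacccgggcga
Creld2, chr15:88819510-88819548, plus strand: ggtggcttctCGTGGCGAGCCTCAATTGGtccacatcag
Syvn1, chr19:6046522-6046560, plus strand: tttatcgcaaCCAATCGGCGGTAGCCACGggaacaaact
Herpud1, chr8:94386307-94386397, plus strand: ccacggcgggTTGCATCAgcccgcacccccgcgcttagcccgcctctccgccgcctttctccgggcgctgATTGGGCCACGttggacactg
In the Herpud1 stretch the CARE comes first and the ERSE-II second, whereas Hsp90b1 has an ERSE at each end.

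The CARE of 3 ATF4 effector genes is shown for comparison, with the same conventions.
Chac1, chr2:119351039-119351066, plus strand: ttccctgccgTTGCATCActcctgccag
Atf3, chr1:191183426-191183453, minus strand: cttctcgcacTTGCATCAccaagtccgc
Asns, chr6:7693215-7693242, minus strand: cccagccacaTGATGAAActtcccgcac
The Herpud1, Chac1 and Atf3 windows hold the same TTGCATCA letters, and Asns holds its match on the gene's strand.

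The comparison asked which members differ after exposure of the cells to FL-ApoE4. Most did not differ beyond the spread between libraries: the chaperones, disulfide isomerases and most ERAD genes lay close to their control values. The exceptions in size were Herpud1, Ppp1r15a and Ppp1r15b, all lower with FL-ApoE4. With all 6 libraries limma called 0 of the 33 members at an adjusted p under 0.05, as it did 0 of 14079 genes (0%). At an unadjusted p under 0.05 limma gave 4 members, 3 of them lower and 1 (Edem2) higher, against 13.1% of all genes tested (6.33% lower and 6.81% higher), and the edgeR quasi-likelihood test gave 4 members with 0 called (13.1% and 0% of all genes). DESeq2 called 3 members, Herpud1, Ppp1r15a and Ppp1r15b, all lower, against 3.21% of genes called, and 1.59% called lower. In the authors' deposited table the same 3 members have an adjusted p under 0.05, against 2.85% of genes called there and 1.33% called lower.

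The median log2 fold change over the 33 members was 0.01, with 17 positive and 16 negative, and over all genes tested it was 0.00, with 50.3% positive. Without FL-ApoE4 replicate 1 the members' median was -0.01, with 10 positive and 23 negative. Their summed level was 379867 ± 6583 normalised reads in the FL-ApoE4 group and 381317 ± 4559 in the control group (mean ± SD, n = 3 each), a difference of -0.380%. For 24 members the 95% interval of the fold change lay within 1.2-fold either way, against 37.1% of all genes tested. Members are more abundant than most genes, with a median of 6220 normalised reads against 1289, and their standard errors are smaller (median 0.06 against 0.09 on the log2 scale). In the range of 3000 to 30000 normalised reads, the 18 members there had a median log2 difference of 0.05 in size. All 4199 genes in that range had 0.06, so these 18 members were about as steady as other genes of that abundance. Herpud1 and Ppp1r15a, at means of 2969 and 2151 normalised reads over all libraries, lay below that range.

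**Figure D1:**
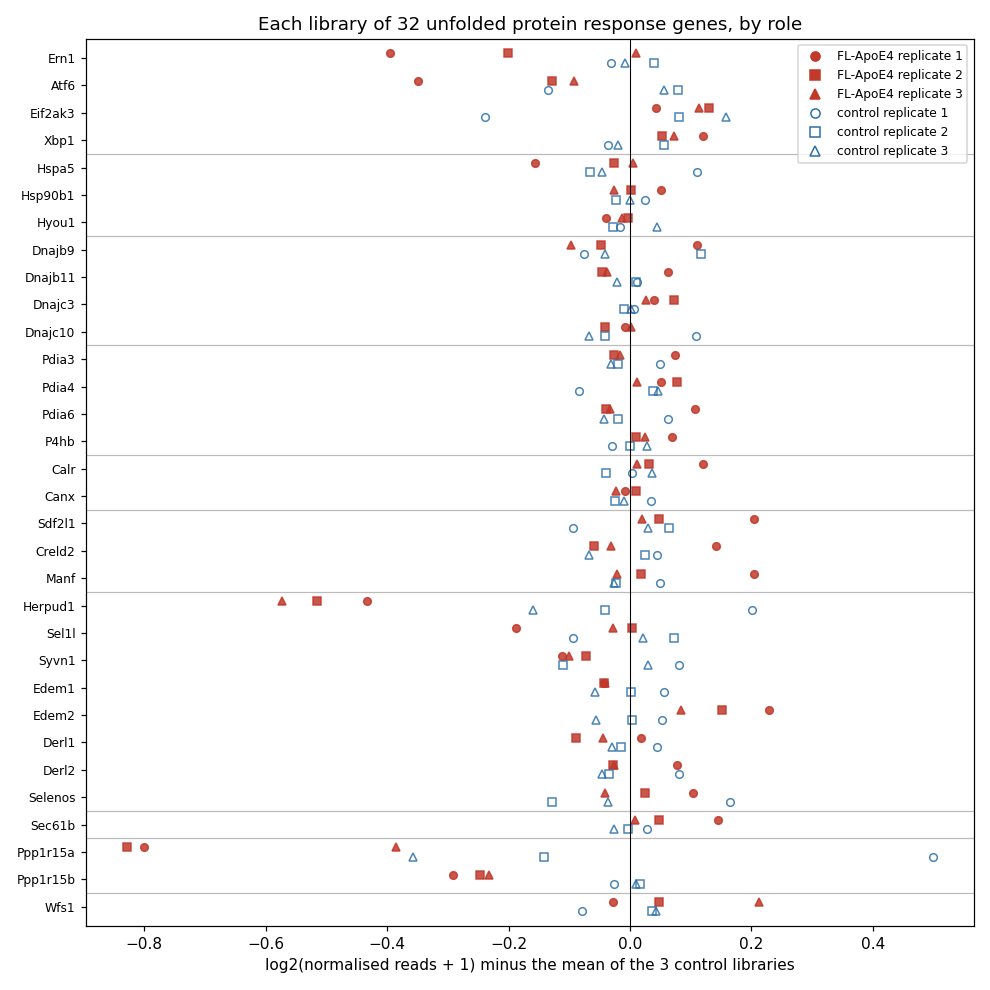
Each library's log2(normalised reads + 1) for 32 members, minus the mean of the 3 controls, with filled red symbols for FL-ApoE4 and open blue symbols for control libraries. Derl3, at about 11 normalised reads, is left out. Herpud1, Ppp1r15a and Ppp1r15b are the members whose 3 FL-ApoE4 libraries all lie left of all 3 controls.

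Levels of members differed over several orders of magnitude. Per kilobase of the longest annotated transcript, Calr, the calcium-binding lectin chaperone calreticulin, was the most abundant, at 32798 normalised reads per kb in the FL-ApoE4 group and 31582 in the control group. Hsp90b1 (15294 per kb with FL-ApoE4 and 15193 in controls), Pdia3 (12381 and 12286), P4hb (10954 and 10694) and Canx (10896 and 10953) came next. The sensors Ern1 (357 per kb with FL-ApoE4 and 406 in controls) and Eif2ak3 (342 and 322) were far lower, with the sensor Atf6 at 1204 and 1372. Wfs1 (233 and 220) and Dnajb9 (431 and 434), which are not sensors, were also low. Derl3, an ERAD protein found mainly in secretory tissues, was lowest at 7.98 per kb with FL-ApoE4 and 8.93 in controls, and its log2 fold change of -0.07 has a 95% interval of -1.16 to 1.03, so a difference in it was not detectable at this depth.

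Of the sensors and their transducer, none passed the test, and all 4 had overlapping libraries. Atf6 had 7786, 9074 and 9306 normalised reads in FL-ApoE4 replicates 1 to 3, against 9030, 10484 and 10306 in control replicates 1 to 3. FL-ApoE4 replicate 1 was the lowest library, and control replicate 1 lay below FL-ApoE4 replicates 2 and 3. The log2 fold change was -0.19 ± 0.09 (SE; limma adjusted p = 0.416), and -0.26 without control replicate 1 (adjusted p = 0.1). Ern1 had 2143, 2451 and 2839 normalised reads with FL-ApoE4, against 2758, 2895 and 2801 in controls, a log2 fold change of -0.20 ± 0.10 (adjusted p = 0.455). The third FL-ApoE4 library lay within the control range and the other two below it. Without FL-ApoE4 replicate 1 the values were -0.10 for Ern1 and -0.11 for Atf6, over 1.5 times smaller in size than with all libraries.

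Eif2ak3 had 1489, 1582 and 1564 normalised reads with FL-ApoE4, against 1225, 1529 and 1612 in controls. Its control replicate 1 was the lowest library, and its log2 fold change of 0.10 ± 0.10 turned to -0.02 without that library. Xbp1 had 4328, 4127 and 4185 normalised reads with FL-ApoE4, against 3880, 4139 and 3926 in controls. Control replicate 2 lay just above FL-ApoE4 replicate 2, and the log2 fold change was 0.08 ± 0.05 (limma adjusted p = 0.547). The table counts reads per gene, so spliced and unspliced Xbp1 cannot be told apart, and neither can cut and uncut ATF6 or the phosphorylation state of PERK.

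Atf6 and Ern1 have the longest transcripts of the members, and in FL-ApoE4 replicate 1 long members were low. Across 32 members (without Derl3) the deviation of that library from FL-ApoE4 replicates 2 and 3 had a Spearman rho of -0.82 with transcript length and a Pearson r of -0.70 with its log2 value. The same rho was -0.47 over 13127 genes tested that have a length. These are correlations across genes of the same 3 libraries, which are not independent replicates. Ern1 deviated by -0.30, Atf6 by -0.24 and the ERAD adaptor gene Sel1l by -0.17 on the log2 scale, whereas the short transcripts of Manf, Creld2 and Sdf2l1 deviated by 0.21, 0.19 and 0.17. With each library's trend with transcript length removed, the fold changes were -0.15 for Ern1 (limma adjusted p = 0.367) and -0.14 for Atf6 (0.203). The unadjusted limma p of Atf6 was 0.0145 in that fit and 0.0638 in the main fit, and that of Ern1 was 0.0654 and 0.0865. The corrected fit gave 5 members and 1989 of 13127 genes at an unadjusted p under 0.05. The part of transcript length in the lower values of Atf6 and Ern1 was not tested.

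**Figure D2:**
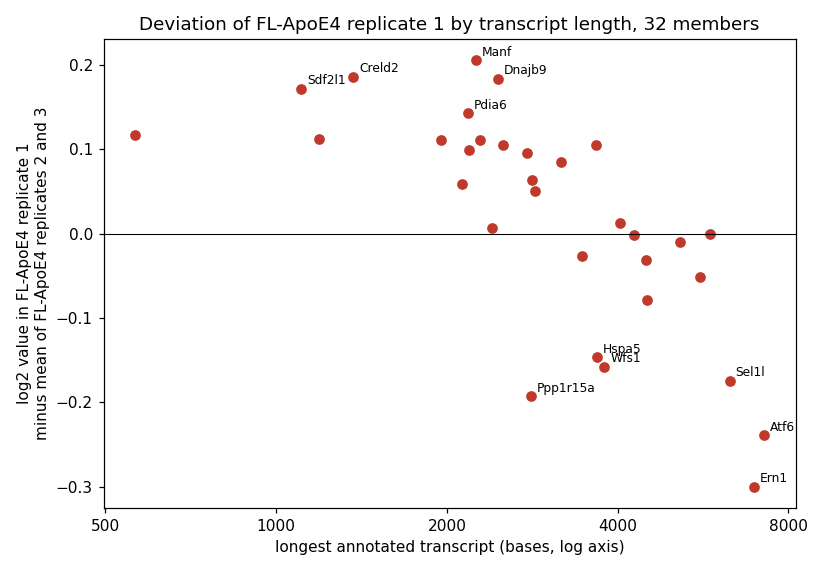
The log2 value in FL-ApoE4 replicate 1 minus the mean of FL-ApoE4 replicates 2 and 3, against the length of the longest annotated transcript in bases on a log axis, 1 point per member for 32 members. The points fall from positive values for short transcripts to -0.30 for Ern1 and -0.24 for Atf6.

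The large chaperones of the ER lumen did not pass the test. Hspa5 encodes BiP, the HSP70-type chaperone that holds the sensors inactive and is the usual readout of this response, and it is named here for that role, outside the rule for printed genes. It had 7951, 8703 and 8898 normalised reads with FL-ApoE4, against 9573, 8469 and 8587 in controls. Control replicate 1 was the highest library and FL-ApoE4 replicate 1 the lowest, and the other 4 libraries lay between them. The log2 fold change was -0.06 ± 0.07, with a 95% interval of -0.22 to 0.10, and under 0.01 in size without control replicate 1. Hsp90b1, the HSP90-type chaperone GRP94, had 44479, 42983 and 42152 normalised reads with FL-ApoE4, against 43648, 42213 and 42898 in controls. Hyou1, a nucleotide exchange factor for BiP, had 15816, 16214 and 16100 with FL-ApoE4, against 16067, 15935 and 16751 in controls. The groups overlapped in both genes, with log2 fold changes of 0.01 ± 0.04 and -0.02 ± 0.04.

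The DNAJ cochaperones stimulate BiP or pass clients to it. Dnajc3, which also inhibits PERK, had 4301, 4400 and 4263 normalised reads with FL-ApoE4, against 4205, 4157 and 4189 in controls. These libraries did not overlap, but the log2 fold change was only 0.05 ± 0.05 (limma adjusted p = 0.728). Of all 33 members 5 had groups that did not overlap, 3 lower and 2 higher with FL-ApoE4, against 21.9% of genes tested (10.9% lower and 11.1% higher). Dnajb11 had 9147, 8481 and 8534 with FL-ApoE4, against 8822, 8816 and 8631 in controls. Dnajc10, a disulfide reductase that aids ERAD, had 6217, 6071 and 6259 with FL-ApoE4, against 6741, 6070 and 5964 in controls. Dnajb9, which returns IRE1α to its inactive state and is a common target of spliced XBP1, averaged 1060 ± 81.2 with FL-ApoE4 and 1068 ± 77.5 in controls (SD, n = 3 each). Groups overlapped in these 3 genes, and their log2 fold changes lay at -0.01 or -0.02.

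Disulfide isomerases form and reshuffle disulfide bonds in client proteins. None of the 4 passed the test, and all 4 had log2 fold changes near 0. Pdia3, which works with calreticulin and calnexin, had 35832, 33412 and 33639 normalised reads with FL-ApoE4, against 35226, 33571 and 33301 in controls. P4hb, the founding member of the family, had 32084, 30811 and 31126 with FL-ApoE4, against 29985, 30607 and 31194 in controls. Replicate 1 of the FL-ApoE4 group was the highest library in both genes, and the groups overlapped. Fold changes on the log2 scale were 0.01 ± 0.05 for Pdia3 and 0.03 ± 0.04 for P4hb, 0.05 ± 0.05 for Pdia4 and 0.01 ± 0.06 for Pdia6. Their shared sign rested on FL-ApoE4 replicate 1, without which Pdia3 was at -0.02 and Pdia6 at -0.04.

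The lectin chaperones hold glycoproteins during folding. Calr had 74937, 70449 and 69503 normalised reads with FL-ApoE4, against 69100, 67110 and 70717 in controls. Canx, the membrane-bound calnexin, had 46602, 47185 and 46156 with FL-ApoE4, against 48027, 46080 and 46566 in controls. Their log2 fold changes were 0.05 ± 0.05 and -0.01 ± 0.04, with overlapping groups. The small ER proteins did not pass the test either. Sdf2l1, a BiP partner, had 3796, 3403 and 3339 with FL-ApoE4, against 3086, 3444 and 3362 in controls. Manf, a secreted survival factor that binds BiP, had 7756, 6818 and 6636 with FL-ApoE4, against 6968, 6623 and 6614 in controls. FL-ApoE4 replicate 1 was the highest library for both, and the Manf fold change was 0.07 ± 0.07 with all libraries and -0.00 without it. Creld2, a secreted ER stress protein, averaged 3157 ± 242 with FL-ApoE4 and 3116 ± 128 in controls (SD, n = 3 each).

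The ERAD gene Herpud1 was the most clearly lower of the degradation genes. Its product scaffolds the membrane ubiquitin ligase complex and is itself short-lived. It had 2571, 2430 and 2334 normalised reads in FL-ApoE4 replicates 1 to 3, against 3991, 3377 and 3109 in control replicates 1 to 3. Every FL-ApoE4 library lay below every control, and control replicate 1 was the highest. The means were 2445 ± 120 with FL-ApoE4 and 3492 ± 452 in controls (SD, n = 3 each), a difference of -30.0%. The log2 fold change was -0.51 ± 0.09 (limma adjusted p = 0.125, edgeR 0.125). DESeq2 called it lower at -0.52 (adjusted p = 0.000395), and in the authors' deposited table it stands at -0.51 (adjusted p = 0.000414). Without control replicate 1 it fell by 0.41 on the log2 scale (limma adjusted p = 0.0101), where 4.62% of all genes tested were called and 1.69% called lower. With that library left out, edgeR called 2 members (4.91% of genes) and DESeq2 4 (7.54%), which added Ppp1r15a and Atf6 (-0.26, adjusted p = 0.0397) to Herpud1 and Ppp1r15b. That fit has only control replicates 2 and 3, the most alike controls, so its p-values may be too small. No annotated exon of another gene overlaps Herpud1.

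The other ERAD genes lay nearer to their controls. Edem2, a mannosidase-like factor that marks glycoproteins for degradation, had 4471, 4237 and 4043 normalised reads with FL-ApoE4, against 3955, 3823 and 3666 in controls. All 3 FL-ApoE4 libraries were above all 3 controls, and the log2 fold change was 0.16 ± 0.06 (limma adjusted p = 0.321). Without FL-ApoE4 replicate 1 the Edem2 value was 0.12, with an unadjusted limma p of 0.0747. Syvn1, the ubiquitin ligase HRD1, had 2421, 2490 and 2441 with FL-ApoE4, against 2768, 2424 and 2671 in controls, and its groups overlapped through control replicate 2. Sel1l, the adaptor of that ligase, had 8363, 9538 and 9338 with FL-ApoE4, against 8922, 10014 and 9659 in controls. Edem1, the paralogue of Edem2, had 8622, 8620 and 8632 with FL-ApoE4, against 9229, 8890 and 8538 in controls. Log2 fold changes were -0.09 ± 0.06 for Syvn1 (-0.05 without control replicate 1), -0.07 ± 0.07 for Sel1l and -0.04 ± 0.05 for Edem1. The derlins Derl1 and Derl2, membrane proteins of the export channel, were at -0.04 ± 0.05 and 0.01 ± 0.06, and Selenos, which tethers the extraction machinery, at 0.03 ± 0.08.

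**Figure D3:**
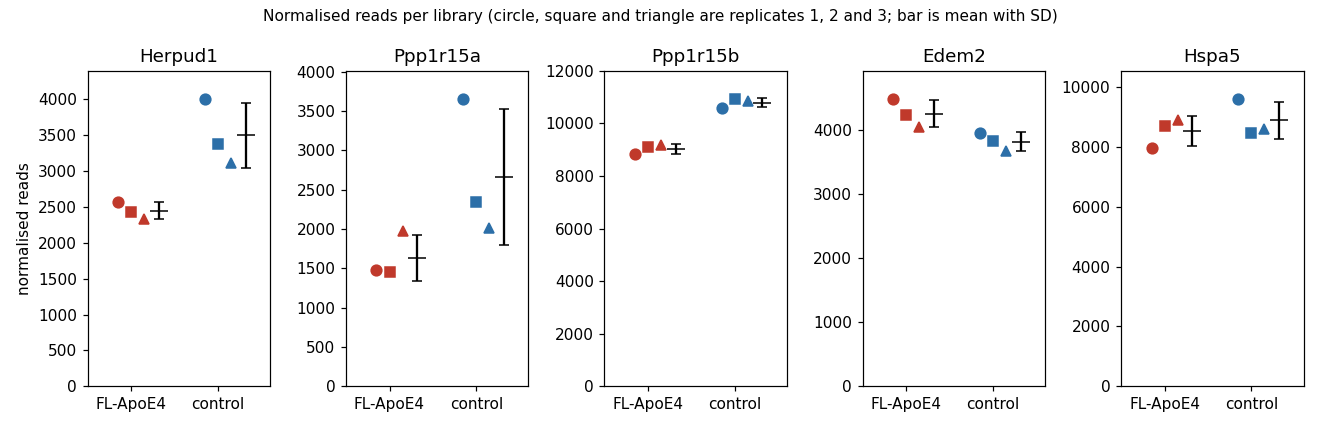
Normalised reads per library for Herpud1, Ppp1r15a, Ppp1r15b, Edem2 and Hspa5, with FL-ApoE4 left of control in each panel and bars for the mean and SD of 3 libraries. The panels show separated groups for the first 4 genes, with control replicate 1 high for Herpud1 and Ppp1r15a, and overlapping groups for Hspa5.

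Both regulatory subunits of the eIF2α phosphatase were lower. Ppp1r15b encodes the constitutive subunit, which keeps eIF2α phosphorylation low in unstressed cells. It had 8818, 9087 and 9185 normalised reads with FL-ApoE4, against 10593, 10910 and 10864 in controls. The groups were far apart relative to their spread, at 9030 ± 190 with FL-ApoE4 and 10789 ± 171 in controls (SD, n = 3 each), a difference of -16.3%. Its log2 fold change of -0.26 ± 0.04 had the lowest p of the members (limma adjusted p = 0.112). With control replicate 1 left out it was called lower, at -0.27 (limma adjusted p = 0.0132). DESeq2 with all 6 libraries also called it lower (adjusted p = 0.000583). A predicted gene on the opposite strand, Gm26616, shares exon bases with Ppp1r15b, and the strand setting of the authors' counting is not given in the sources used here.

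Ppp1r15a encodes GADD34, the stress-induced subunit, and is a target of ATF4. It had 1481, 1452 and 1974 normalised reads with FL-ApoE4, against 3648, 2338 and 2014 in controls. The groups did not overlap, but the highest FL-ApoE4 library and the lowest control were close, and control replicate 1 was far above the other controls, by 0.75 on the log2 scale. The log2 fold change was -0.67 ± 0.22 (limma adjusted p = 0.267), and -0.42 without control replicate 1 (adjusted p = 0.116), over 1.5 times smaller in size. DESeq2 called it lower with all libraries (adjusted p = 0.0297). Summed, both subunits gave 10299, 10539 and 11159 normalised reads with FL-ApoE4, against 14241, 13249 and 12878 in controls, a difference of -20.7% between the group means. Tulp2, whose exons overlap Ppp1r15a on the opposite strand, averaged 103 normalised reads with FL-ApoE4 and 102 in controls.

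The remaining members are membrane components. Sec61b, a subunit of the channel through which nascent proteins enter the ER, had 2126, 1989 and 1933 normalised reads with FL-ApoE4, against 1961, 1920 and 1889 in controls. Wfs1, which takes part in ER calcium balance, had 817, 860 and 965 with FL-ApoE4, against 788, 854 and 857 in controls. FL-ApoE4 libraries were the highest in both genes, but the groups overlapped, and the log2 fold changes were 0.07 ± 0.06 and 0.08 ± 0.08.

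**Figure D4:**
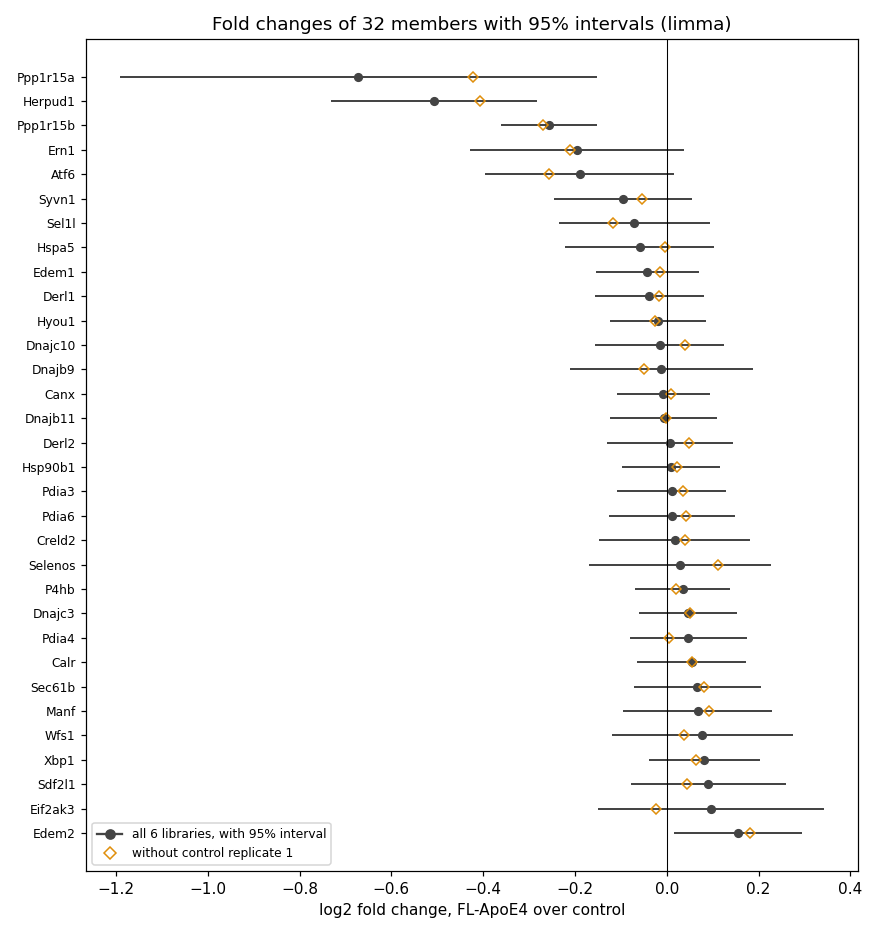
Log2 fold changes of FL-ApoE4 over control for 32 members, in order of size, with circles and 95% intervals from limma over all 6 libraries and open diamonds for the fit without control replicate 1. The intervals of Ppp1r15a, Herpud1, Ppp1r15b and Edem2 exclude 0 before adjustment for multiple tests, and those of the other members include it.

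Genes next to the members in the pathway were read from the same fit, in which limma called 0 of them over all 6 libraries (0% of all genes, and 13.1% at an unadjusted p under 0.05). The ATF4 effectors, which the member list leaves out, had a median log2 fold change of -0.53, and all 9 measured genes were negative, against 0.00 over all genes tested. The effector list was chosen with earlier results of these data known, so this contrast is a description only. Of these 9 genes, 7 had an unadjusted p under 0.05 and 7 had groups that did not overlap, against 21.9% of genes. Atf4 itself averaged 18046 ± 1157 normalised reads with FL-ApoE4 and 24574 ± 192 in controls. Chac1, a glutathione-degrading enzyme, averaged 48.7 ± 16.6 with FL-ApoE4 and 141 ± 21.4 in controls, and Sesn2, a leucine sensor, 1508 ± 263 with FL-ApoE4 and 2944 ± 460 in controls (SD, n = 3 each). Without control replicate 1 limma called 5 of the 9 lower (1.69% of all genes), and of the 33 members it called Herpud1 and Ppp1r15b. Ddit3, which encodes the pro-apoptotic factor CHOP, had a log2 fold change of -0.26 ± 0.13, and Nupr1 was listed at 0 in all libraries.

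The medians of the other pathway lists were near 0. Of 18 further ERAD genes, limma gave 0 at an unadjusted p under 0.05, with a median log2 fold change of -0.02; those of lowest p were Ube2j2 (-0.10 ± 0.06), a ubiquitin-conjugating enzyme, Nploc4 (-0.09 ± 0.06), a cofactor of the extraction ATPase, and Marchf6 (-0.12 ± 0.09), a ubiquitin ligase. Without control replicate 1, Ube2j2 was at -0.06 and Nploc4 at -0.03, and without FL-ApoE4 replicate 1 Marchf6 was at -0.03. Of 17 measured genes of oxidative folding, 1 had an unadjusted p under 0.05, the disulfide oxidase gene Ero1a (-0.22 ± 0.08), and Ppib (0.09 ± 0.06) and Tmx2 (0.09 ± 0.07) followed. The median of that list was 0.02, with 13 genes positive. Without FL-ApoE4 replicate 1 it was -0.01, with 8 of 17 positive and 0 at an unadjusted p under 0.05 (10.8% of all genes). Without control replicate 1, Ppib was at 0.05 and Tmx2 at 0.04. Of 16 genes of the translocon and signal peptidase, 0 had an unadjusted p under 0.05, with a median of 0.02 and values of -0.08 ± 0.05 for Sec63, 0.07 ± 0.06 for Spcs2 and 0.05 ± 0.05 for Tram1. Without FL-ApoE4 replicate 1 that median was -0.02, and these genes were at -0.05 for Sec63, 0.03 for Spcs2 and 0.03 for Tram1. Among 15 measured regulators of the response, Creb3l3 (0.35 ± 0.14) and Yy1 (-0.11 ± 0.04) had an unadjusted p under 0.05 and Creb3l2 (0.28 ± 0.17) followed, with a median of -0.02. Without control replicate 1, 4 of the 15 were higher and 2 lower at an unadjusted p under 0.05, as were 19% of all genes in either direction, the median was 0.00 and Creb3l2 was at 0.17. Nfyb and Fkbp2 were listed at 0 in all libraries, which was not read as absence, since B2m also summed to 0.

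The fold changes were then set beside the promoter matches. The 9 members with an ERSE had log2 fold changes between -0.09 and 0.05, with a median of 0.01 and 0 at an unadjusted p under 0.05. The other 19 members with a window ranged from -0.67 to 0.16, with a median of 0.01, and 3 of them (15.8%) had an unadjusted p under 0.05. All 19 genes tested whose window holds an ERSE, which include the 9 members with an ERSE, ranged from -0.43 to 0.51. Their median was 0.01, and 1 gene (5.26%) had an unadjusted p under 0.05. Herpud1, with the stretch shown above that holds a CARE and an ERSE-II, stood at -0.51, whereas Dnajb11, the other member with an ERSE-II, stood at -0.01. The ERSE-II of Dnajb11 lies after the start and that of Herpud1 before it. Over all 9 genes tested with an ERSE-II, Herpud1 and Dnajb11 included, the median was -0.01. Of those 9 genes, 2 (22.2%) had an unadjusted p under 0.05, both lower. Whether either motif plays a part in the Herpud1 value was not tested. Among the 4 measured ATF4 effectors with a CARE, the values were -1.56 for Chac1, -0.88 for Trib3, -0.53 for Atf3 and -0.13 for Asns. Control replicate 1 was the highest Atf3 library, at 18159 normalised reads against 12290 and 10993 in control replicates 2 and 3, and without it Atf3 was at -0.31 and Asns at -0.07. The 5 effectors with no CARE in the window were at -1.38 for Ddit4, -0.97 for Sesn2, -0.45 for Atf4, -0.28 for Cebpb (-0.18 without control replicate 1) and -0.26 for Ddit3, whose groups overlapped. Over all 328 genes tested whose window holds a CARE the median was 0.00, and 17.1% had an unadjusted p under 0.05, against 12.9% of 11087 genes tested with a window. Ppp1r15a held none of the 4 motifs in its window, and Ppp1r15b was among the 5 members with no window in the table.

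**Figure D5:**
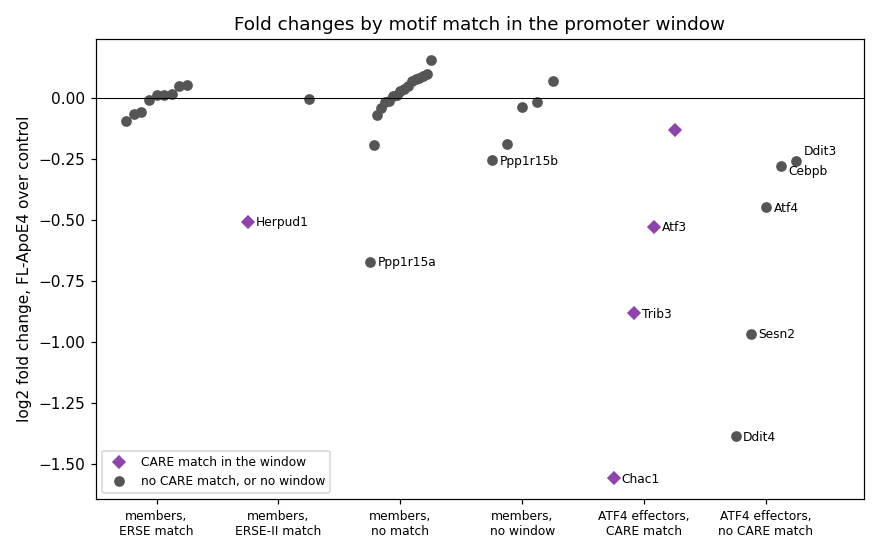
Log2 fold changes of FL-ApoE4 over control for the 33 members and 9 measured ATF4 effectors, grouped by the motif matched in the promoter window, with purple diamonds for genes whose window holds a CARE. Members with an ERSE lie between -0.09 and 0.05, and Herpud1, at -0.51, is the member with a CARE.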

How the data were processed

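Total RNA of the 6 BV2 samples was sequenced from libraries of a directional kit, per the labels' protocols. Per the submitters' processing notes the build was GRCm39 and the tools were HISAT2 2.2.1, FastQC 0.11.8, DESeq2 1.30.1 and HTSeq; their roles and settings are not given. What the authors deposited is a table of signal values, normalised reads per gene (40202 genes, 6 libraries). Dividing each column by its smallest value above 0 gave whole reads for 100% of values, within 0.01 of a read. The authors' deposited tables also hold log2 fold changes, p-values and a test score per gene, used here only where named.

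Members and lists were chosen with earlier results of these data known. Because the values are normalised, limma 3.58.1, with its variance trend on and run under R 4.3.3, was fitted to log2(value + 1) for genes with a mean of at least 10, two-sided, with Benjamini-Hochberg adjustment over all genes and a threshold of 0.05. Fold changes on this scale understate those of low genes. Alternatives included edgeR 4.0.16 and DESeq2 1.42.0 on recovered reads. All 3 tools were tested on simulated data. Values per library were printed for the sensors, for the 6 members of lowest p each way, for members whose groups did not overlap and for up to 2 abundant members of each role; in each further list the 3 genes of lowest p were named, with Ddit3, Trib3, Atf3, Asns, Ddit4 and Cebpb added after their values were seen. Transcript lengths come from GENCODE M21 (93.2% of tested genes) and promoters from RefSeq, both of build GRCm38, so their coordinates are not those of the authors' build. Exons of 11 members overlap another gene there.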

Additional observations from a re-analysis of the deposited data

How the results depend on the processing

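Across 20 alternative settings 18 members kept the sign of their fold change, 15 changed it in at least 1, and 4 were called in at least 1. The log2 fold change of Herpud1 stayed between -0.59 and -0.40 (adjusted p 5.44e-06 to 0.572), that of Ppp1r15b between -0.27 and -0.23 (2.96e-05 to 0.567) and that of Ppp1r15a between -0.85 and -0.41 (0.0297 to 0.656). DESeq2 called 390 genes and 3 members, against 0 and 0 by limma. With no filter beyond a mean above 0, limma called 1 gene and 0 members. With control replicate 1 left out, edgeR called 691 genes and 2 members and DESeq2 959 genes and 4 members; these fits and the transcript length correction were chosen after seeing the data. Leaving out each library in turn, limma called 0 to 651 genes and 0 to 2 members. The calls of members arose without control replicate 1. At an unadjusted p under 0.05 these fits gave 2 to 6 members and 1105 to 2672 of 14079 genes. With all libraries these counts were 4 and 1850. The 6 members arose without FL-ApoE4 replicate 3, where 1430 genes passed. With the replicate number as a replicate block, limma called 0 genes and 0 members. At an unadjusted p under 0.05 that fit gave 5 members and 2177 of 14079 genes. Deviations of same-numbered libraries from their group means correlated at 0.13, 0.07 and -0.03. Those of differently numbered libraries ranged from -0.16 to 0.16. With 3 libraries per group these values cannot decide whether same-numbered libraries were paired. The causes of the changes between settings were not tested.

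The 15 members whose sign changed had log2 fold changes of at most 0.10 in size with all libraries. With quantile normalisation the log2 fold changes were 0.0137 for Dnajb11, 0.00229 for Dnajc10 and 0.0109 for Canx. With the length correction they were -0.00573 for Pdia6, 0.00374 for Canx, -0.00767 for Creld2 and -0.000288 for Selenos. With control replicate 1 left out, edgeR gave -0.0196 for Eif2ak3, 0.00164 for Hspa5, 0.00281 for Dnajb11, 0.0424 for Dnajc10 and 0.0135 for Canx, and DESeq2 gave -0.0253 for Eif2ak3, 0.0365 for Dnajc10 and 0.00757 for Canx. Without each library in turn they ranged over -0.0234 to 0.175 for Eif2ak3, -0.0118 to 0.0269 for Hsp90b1, -0.0322 to 0.00378 for Hyou1, -0.0729 to 0.0468 for Dnajb9, -0.0416 to 0.013 for Dnajb11, -0.0493 to 0.039 for Dnajc10, -0.0212 to 0.0359 for Pdia3, -0.0362 to 0.0427 for Pdia6, -0.0198 to 0.01003 for Canx, -0.0449 to 0.0549 for Creld2, -0.00141 to 0.111 for Manf, -0.0276 to 0.0476 for Derl2, -0.465 to 0.319 for Derl3 and -0.0346 to 0.112 for Selenos. Derl3 gave no value with a mean of at least 50. At about 11 normalised reads, depth limits Derl3; the other members are limited by the spread between 3 libraries.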
